A study of Mus musculus with 56 samples.

Results

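The growth hormone and IGF axis of the liver was described here through 10 genes, of 23813 genes in the RNA-seq table. The members were the growth hormone receptor Ghr, the transcription factor Stat5b, the feedback inhibitors Socs2 and Cish, the secreted growth factor Igf1 and the serum proteins that carry or hold it, Igfals, Igfbp1, Igfbp2, Igfbp3 and Igfbp4. They were chosen by name, by a rule that used no measured value, although earlier results of these data were known, and where a gene had several transcripts the first listed transcript was used. All 10 passed the filter on low values in each comparison.

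Growth hormone from the pituitary binds its receptor on hepatocytes, which activates the kinase JAK2 and the transcription factors STAT5A and STAT5B, and these drive Igf1, Igfals, Socs2, Cish and many genes that differ between male and female liver. IGF1 leaves the liver and circulates in a complex with IGFBP3 or IGFBP5 and the acid-labile subunit made from Igfals, while IGFBP1 and IGFBP2 bind smaller pools of it and IGFBP1 is known for its rise in fasting and its repression by insulin. Hypothyroidism is known to lower pituitary growth hormone in rodents, so that thyroid state can reach the liver both through its own thyroid hormone receptor (TR) and through the pituitary.

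The series holds 56 samples, of which the 12 RNA-seq libraries of liver were used, with 4 mice in each of 3 groups, together with the list of histone H3 acetylated regions. Hypothyroid WT mice were fed 0.15% propylthiouracil (PTU), a blocker of thyroid hormone synthesis, in low iodine chow for 16 days with vehicle injections, and hyperthyroid WT mice (PTU_T3 in the labels) had the same diet and 5 μg of triiodothyronine (T3) by injection on the last 4 to 6 days. The third group were hypothyroid L-NCORdeltaID mice (L-NCOR1ΔID in the study), which carry a liver-specific mutant of the corepressor NCOR1 without the domains that bind TR and were kept on a mixed C57BL/6 and 129S background. All mice were male and all received PTU, and the mutant animals of the study were on average younger than the WT animals, so that age and genotype cannot be told apart. The promoter that drives the deletion and the strain of the WT mice of these libraries are not given in the sources used here.

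Levels are given in RPKM, reads per kilobase of transcript scaled to the reads of the library. The depth, estimated from the steps between the lowest values, was such that 1 RPKM stood for 29.2 to 38.4 reads per kilobase in hypothyroid WT, 21.4 to 26.2 in hyperthyroid WT and 38.3 to 42.9 in L-NCORdeltaID mice. Dio1, a classic target of thyroid hormone, lay between 459 and 641 RPKM in hyperthyroid WT, and at 0.719, 6.64, 57.7 and 8.98 RPKM in hypothyroid WT replicates 1 to 4. Thrsp, another target, was 322 ± 128 RPKM in hypothyroid and 1597 ± 652 RPKM in hyperthyroid WT (mean ± SD, n = 4 in these and the following values). Ncor1 was 12.1 to 13.9 RPKM in L-NCORdeltaID and 14.1 to 15.6 RPKM in hypothyroid WT libraries, and a value over the whole gene does not check the deleted part. Hepatocyte markers summed to 38476 to 50330 RPKM in hypothyroid WT, 22852 to 31560 RPKM in hyperthyroid WT and 32670 to 36423 RPKM in L-NCORdeltaID mice. After T3, 2 of 5 (Alb and Ttr) were lower, beside 3.47% of all genes, and Ahsg was higher by 0.90 ± 0.15 (adjusted p = 0.00147), below the size criterion. Among other cells, 1 of 4 biliary markers was higher, beside 8.28% of all genes, and 1 of 4 was lower with the size left aside. Of the lymphocyte markers 0 of 3 passed in limma (1 at an unadjusted p under 0.05, beside 56.5% of all genes).

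Treatment with T3 raised Stat5b and Igfbp1 past the threshold, set at an adjusted p from limma of less than 0.01 together with a log2 fold change of more than 1 in either direction. With the size left aside, 3 of 10 members were higher (Stat5b, Igfbp1 and Igfbp4) and 2 were lower (Ghr and Igfals), while Igf1, Igfbp2, Igfbp3, Socs2 and Cish did not pass. Among all 13941 genes tested, 8.28% passed the threshold upwards and 3.47% downwards, and with any size 24.5% were higher and 7.71% lower, 32.2% together. At an unadjusted p under 0.05, 8 of 10 members and 56.5% of all genes passed. The 2 of 10 and 3 of 10 members were thus read against a background in which changes after T3 were common. The groups of 4 libraries did not overlap for 6 of 10 members, beside 46.6% of all genes. The median log2 fold change was 0.24 over the members and 0.23 over all genes tested, and a scaling of the libraries by the median of gene ratios brought the latter to 0.01. Changes smaller than this shift depend on the scaling, and the members' values after scaling are therefore given beside those of the deposited RPKM.

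Ghr encodes the receptor through which hepatocytes sense growth hormone. The level of its first listed transcript, NM_001048178, was 231, 214, 206 and 206 RPKM in hypothyroid WT replicates 1 to 4, and 122, 113, 92.8 and 109 RPKM in hyperthyroid WT. Every hyperthyroid library lay below every hypothyroid WT library. The log2 fold change after T3 was -0.98 ± 0.09 (SE), a 1.97-fold lower level (adjusted p = 6.68e-05), just short of the size criterion, and -1.22 after scaling. In L-NCORdeltaID mice Ghr was 160, 123, 165 and 165 RPKM. For this transcript these libraries lay below all hypothyroid WT libraries and above all hyperthyroid libraries. The difference from hypothyroid WT, -0.49 ± 0.11, did not pass (adjusted p = 0.0379). Mouse Ghr also encodes a shorter secreted form that binds growth hormone in plasma. Which listed transcript encodes which form was not examined, so the values above may not be those of the full receptor. The other listed Ghr transcripts, NM_010284 and NM_001286370, differed by -0.87 and -0.86 after T3, with adjusted p values of 8.93e-05 and 0.000102 in a fit over all transcripts. They were at 150 to 168 and 151 to 170 RPKM in hypothyroid WT. Their hyperthyroid libraries (76.2 to 99.9 and 77.8 to 102 RPKM) overlapped those of L-NCORdeltaID mice (89.1 to 121 and 89.9 to 123 RPKM). Hyperthyroid WT differed from L-NCORdeltaID mice by -0.32 and -0.31 for them (adjusted p = 0.0637 and 0.0758 in that fit).

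Stat5b and its neighbour Stat5a encode the transcription factors that carry the growth hormone signal to DNA, and STAT5B is the main form in male liver. Stat5b was 7.96, 6.48, 8.42 and 8.71 RPKM in hypothyroid WT, and 28.1, 30.5, 25.0 and 23.98 RPKM in hyperthyroid WT. The groups were far apart, with a 3.38-fold higher level after T3 (log2 fold change 1.76 ± 0.11, adjusted p = 9.95e-06, and 1.52 after scaling). In L-NCORdeltaID mice the values were 9.64, 10.3, 11.5 and 9.66 RPKM. All 4 exceeded the highest hypothyroid WT library, yet the difference of 0.38 ± 0.11 did not pass (adjusted p = 0.0858).

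Stat5a, which was not a member but is listed with the other genes of the pathway, rose more steeply. It was 1.11, 1.48, 2.13 and 1.30 RPKM in hypothyroid WT and 16.1, 16.7, 14.7 and 15.7 RPKM in hyperthyroid WT (log2 fold change 3.34 ± 0.17, adjusted p = 4.07e-06), and 2.62, 1.76, 2.75 and 1.97 RPKM in L-NCORdeltaID mice. The level of Stat5a in hypothyroid WT was a small part of that of Stat5b. After T3 it was a larger part, but every library still had less Stat5a than Stat5b. The coding sequences of the pair are alike, and how the authors' counting shared reads between them was not examined. Markers of Kupffer cells, the resident macrophages of the liver, also differed between the WT groups. All 6 of 6 such markers were higher past the threshold after T3, beside 8.28% of all genes. The summed level of these markers was 36.9 to 52.6 RPKM in hypothyroid WT and 123 to 205 RPKM in hyperthyroid WT. It was 43.4 to 119 RPKM in L-NCORdeltaID mice. The part of Kupffer cells in the rise of Stat5a and Stat5b was not tested. In bulk liver a change in the number of cells of a type and in RNA per cell cannot be told apart.

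Socs2 and Cish encode SOCS proteins that bind the activated receptor and dampen the signal, and both are direct STAT5 targets used as signs of recent growth hormone action. Socs2 was 3.23, 2.80, 2.23 and 2.29 RPKM in hypothyroid WT, and 1.92, 2.16, 1.30 and 1.48 RPKM in hyperthyroid WT. The groups did not overlap, but the log2 difference of -0.60 ± 0.18 had an adjusted p of 0.0224 and missed the threshold, as it did after scaling (-0.83, adjusted p = 0.0111). The L-NCORdeltaID values of 2.73, 5.30, 2.70 and 1.66 RPKM spanned the hypothyroid range (0.12 ± 0.30, adjusted p = 0.861).

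Cish varied several-fold between mice of the same group. It was 1.83, 4.67, 6.61 and 1.51 RPKM in hypothyroid WT, 12.8, 24.8, 7.99 and 3.41 RPKM in hyperthyroid WT and 4.25, 12.5, 2.93 and 3.09 RPKM in L-NCORdeltaID mice. The groups overlapped. The log2 difference after T3 was 1.63 with a 95% confidence interval of 0.21 to 3.05 (adjusted p = 0.0567) and was 1.40 after scaling, and that in L-NCORdeltaID mice was 0.60 with an interval of -0.68 to 1.89 (adjusted p = 0.591). Socs2 and Cish thus differed in opposite directions after T3, and neither passed.

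Cish is the member whose gene start held the STAT5 motif most densely, and these sequences are shown for that reason. The motif searched was TTCNNNGAA, which is its own reverse complement, and 8.3% of the 32851 RefSeq promoters (GRCm38.p6, 250 bases before to 50 after a start) hold it. In the windows below, 30 bases each on the + strand of chromosome 9 in mm9 (chr9:107198985-107199014 and chr9:107199093-107199122), the capitals mark the matches, which begin at positions 1, 12, 106 and 123 counted from the RefSeq start of Cish at 107198990.
Cish, first pair: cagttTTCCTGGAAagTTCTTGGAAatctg
Cish, second pair: ggTTCTAGGAAgatgaggcTTCCGGGAAgg
The acetylated region around the start of Cish held 16 such matches, 0.993 per kb, beside 0.328 per kb over all acetylated regions. The promoters of Igfals held 1 match each at 2 of its 3 RefSeq starts, the windows chr17:25014543-25014572 and chr17:25015108-25015137 of mm9, both on the + strand.
Igfals, first start: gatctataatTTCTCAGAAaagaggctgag
Igfals, second start: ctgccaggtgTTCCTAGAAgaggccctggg
No match lay in the RefSeq promoter windows of Ghr, Stat5b, Igf1 or Igfbp1 to Igfbp4, which says only that these letters were not in those windows. RefSeq promoters were found for 9 of 10 members, all but Socs2. The acetylated region at the start of Socs2 held 4 matches, 0.528 per kb. The region at Igfbp2 held 0.716 per kb, that at Igf1 0.444 and that at Igfals 0.337. Lower densities were found at Stat5b (0.274), Igfbp4 (0.221), Igfbp1 (0.215) and Ghr (0). Within 1 kb of the GENCODE M1 start, Socs2 had 3 matches, beside 5 for Cish and 2 for Igfals.

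Igf1, the endocrine product of the axis, was 94.8, 80.5, 75.4 and 79.1 RPKM in hypothyroid WT and 79.5, 78.7, 65.0 and 74.0 RPKM in hyperthyroid WT. In L-NCORdeltaID mice it was 77.8, 87.2, 68.1 and 55.6 RPKM. The 3 groups overlapped and none of the comparisons passed. The log2 difference after T3 was -0.15 with a 95% confidence interval of -0.36 to 0.06 (adjusted p = 0.216), and after scaling it was -0.39 (adjusted p = 0.029). In L-NCORdeltaID mice it was -0.21, with an interval of -0.52 to 0.11 (adjusted p = 0.438). The 4 listed Igf1 transcripts gave differences between -0.15 and -0.14 after T3.

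Igfals encodes the acid-labile subunit, made by hepatocytes, that holds IGF1 and IGFBP3 in a long-lived complex in blood. It was 48.5, 59.5, 51.4 and 47.2 RPKM in hypothyroid WT, 38.6, 34.1, 28.9 and 32.6 RPKM in hyperthyroid WT and 29.95, 36.4, 35.0 and 28.8 RPKM in L-NCORdeltaID mice. Both latter groups lay wholly below hypothyroid WT and overlapped each other. The log2 fold change was -0.62 ± 0.11 after T3 (adjusted p = 0.00137, and -0.86 after scaling) and -0.67 ± 0.10 in L-NCORdeltaID mice (adjusted p = 0.00973). The direct comparison of hyperthyroid WT with L-NCORdeltaID mice gave 0.04, with a 95% confidence interval of -0.21 to 0.30 (adjusted p = 0.79).

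Igfbp3, the main carrier of IGF1 in blood, is made in liver mostly outside hepatocytes. It was low, at 5.98, 3.92, 3.85 and 7.95 RPKM in hypothyroid WT, 3.18, 3.23, 4.25 and 5.15 RPKM in hyperthyroid WT and 8.95, 10.8, 7.90 and 4.42 RPKM in L-NCORdeltaID mice. The groups overlapped in each comparison. The log2 differences were -0.41 after T3 (adjusted p = 0.199, and -0.64 after scaling with an adjusted p of 0.0647) and 0.55 in L-NCORdeltaID mice (adjusted p = 0.353), and hyperthyroid WT differed from L-NCORdeltaID mice by -0.96 ± 0.27 (adjusted p = 0.0207), which passed after scaling (-1.15, adjusted p = 0.00929).

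Igfbp1, the binding protein that changes fastest with nutrition, had the largest difference among the members. It was 32.1, 2.76, 10.7 and 26.3 RPKM in hypothyroid WT and 98.8, 409, 132 and 59.3 RPKM in hyperthyroid WT. Every hyperthyroid library exceeded every hypothyroid WT library, although each group spread widely. The level was 10.5-fold higher after T3 (log2 fold change 3.39 ± 0.80, adjusted p = 0.00723, and 3.15 after scaling with an adjusted p of 0.014). The call held in 2 of 8 fits that left out 1 library and was lost without hyperthyroid replicate 1, 2 or 3 or hypothyroid replicate 2, 3 or 4. Without hyperthyroid replicate 2, the library at 409 RPKM, the log2 fold change was 2.85 (adjusted p = 0.0161). In L-NCORdeltaID mice Igfbp1 was 53.6, 55.3, 27.9 and 22 RPKM, which overlapped hypothyroid WT (1.54, 95% confidence interval -0.06 to 3.13, adjusted p = 0.26).

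The promoter of Igfbp1 is known as a target of FOXO factors, which insulin keeps out of the nucleus, and is shown because this member differed most. The 250 bases before its RefSeq start lie on the + strand at chr11:7097540-7097789 of mm9, in an acetylated region, and the capitals mark the single match to CAAAACA, the core of the insulin response sequence.
Igfbp1: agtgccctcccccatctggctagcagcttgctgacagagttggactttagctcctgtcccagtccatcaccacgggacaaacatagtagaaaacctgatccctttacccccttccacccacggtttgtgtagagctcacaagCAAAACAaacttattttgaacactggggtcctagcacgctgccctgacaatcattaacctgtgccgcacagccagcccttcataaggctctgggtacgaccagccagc
On either strand this motif occurs in 6.28% of the 32851 RefSeq promoter windows, and of the members only Igfbp1 held it. Beside 8.28% of all genes past the threshold upwards after T3, 1 of 8 genes listed as related to fasting was past it. This was Pdk4, a kinase that shuts off pyruvate dehydrogenase, at 0.781 ± 0.362 RPKM in hypothyroid and 2.93 ± 1.82 RPKM in hyperthyroid WT (log2 fold change 1.70 ± 0.40, adjusted p = 0.00674), and after scaling 0 of 8 were higher and 1 of 8 was lower. The call was also lost with a pseudocount of 1, no filter, the replicate block or no variance trend. In L-NCORdeltaID mice 0 of 8 passed in limma, beside 1.27% of all genes, and Pdk4 was at 2.32 ± 0.58 RPKM. At an unadjusted p under 0.05 the counts there were 3 of 8 and 20.5% of all genes.

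Igfbp2, another insulin-sensitive binding protein, was 156, 136, 91.0 and 92.2 RPKM in hypothyroid WT, 148, 151, 229 and 201 RPKM in hyperthyroid WT and 126, 251, 179 and 206 RPKM in L-NCORdeltaID mice. Its groups overlapped. The differences of 0.63 ± 0.21 after T3 (adjusted p = 0.0336, and 0.39 after scaling with an adjusted p of 0.156) and 0.68 ± 0.24 in L-NCORdeltaID mice (adjusted p = 0.158) did not pass.

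Igfbp4, an inhibitor of IGF action and the most abundant member, was 629, 660, 731 and 615 RPKM in hypothyroid WT and 1183, 1122, 1119 and 1076 RPKM in hyperthyroid WT. The groups were well apart. The level after T3 was 1.71-fold higher (log2 fold change 0.77 ± 0.10, adjusted p = 0.000262, and 0.53 after scaling with an adjusted p of 0.00443), below the size criterion. In L-NCORdeltaID mice it was 624, 897, 622 and 516 RPKM, centred on the hypothyroid WT level (-0.01, 95% confidence interval -0.38 to 0.35, adjusted p = 0.974).

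The sum of Igfbp1 to Igfbp4 was set against Igf1 in each library, in RPKM, as a description of the mix of transcripts. It was 8.68 to 11.1 times the Igf1 level in hypothyroid WT, 18.02 to 22.8 times in hyperthyroid WT and 10.5 to 13.9 times in L-NCORdeltaID mice. Hyperthyroid libraries stood above all others, and Igfbp4 alone made up 66.6 to 82.6% of the sum in them and 76.4 to 87.4% in hypothyroid WT.

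**Figure D1:**
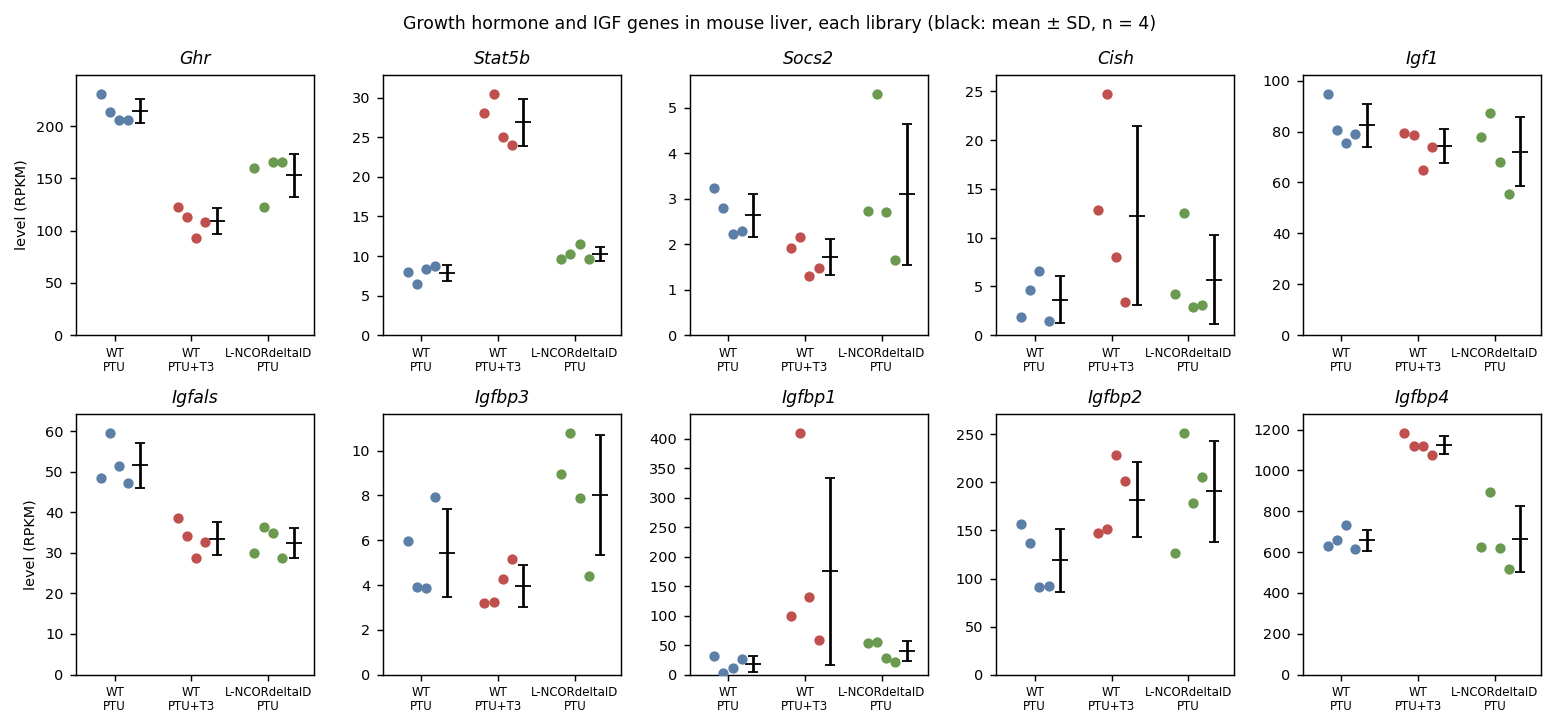
Level of each axis gene in RPKM (vertical axes, linear from 0) in the 4 libraries of each group, with the mean ± SD in black beside the points. Stat5b and Igfbp4 of hyperthyroid WT sit above both other groups, Igfals sits at 28.8 to 38.6 RPKM in both hyperthyroid WT and L-NCORdeltaID mice, and Igf1 overlaps throughout.

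The comparison of hypothyroid L-NCORdeltaID with hypothyroid WT mice asks which genes change without hormone once NCOR1 can no longer bind TR. Only Igfals passed (adjusted p under 0.01 at any size), and it was lower. The background was 0.725% of 13790 genes higher and 0.544% lower (1.27% together), at an unadjusted p under 0.05 the counts were 4 of 10 members and 20.5% of all genes, and the 2 groups did not overlap for 3 of 10 members (Ghr, Stat5b and Igfals) and for 13.1% of all genes. The call of Igfals lay close to the threshold. It was lost in all 8 fits that left out 1 library, WT or mutant, in which the adjusted p was 0.0117 to 0.0331, although the log2 fold change stayed between -0.72 and -0.60. The median log2 difference was 0.25 over the members and 0.03 over all genes.

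The direct comparison of hyperthyroid WT with hypothyroid L-NCORdeltaID mice tests whether the effects of T3 and of the mutation differ, since both share the hypothyroid WT mice as reference. Stat5b and Igfbp4 were higher in hyperthyroid WT, by 1.38 ± 0.10 (adjusted p = 3.22e-05) and 0.79 ± 0.18 (adjusted p = 0.00815), and none was lower. Of 14017 genes 15.5% were higher and 5.7% lower (21.2% together), 6 of 10 members and 48.4% of all genes had an unadjusted p under 0.05, and the groups did not overlap for 4 of 10 members and 38.3% of all genes. The call of Igfbp4 held in 1 of 8 fits that left out 1 library, the fit without L-NCORdeltaID replicate 2, and was also lost after scaling (adjusted p = 0.0359). Stat5b kept its call in all 8. Ghr differed by -0.48 ± 0.13 (adjusted p = 0.0161), Igfbp1 by 1.86 ± 0.55 (adjusted p = 0.0265) and Igf1 by 0.06 ± 0.14 (adjusted p = 0.769).

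Side by side, the members fell into several patterns. Stat5b and Igfbp4 had log2 fold changes of 1.76 and 0.77 with T3 and of 0.38 and -0.01 in L-NCORdeltaID mice, and here the difference between the effects itself passed. For Stat5b that difference passed in all 8 fits that left out 1 library and after scaling. For Igfbp4 it passed in 1 of 8 such fits and not after scaling. Igfals was lower by nearly the same amount in both, although its call in L-NCORdeltaID mice was lost in all 8 such fits. Ghr was at -0.98 and -0.49 with a difference that missed the threshold. For Igfbp1, Igfbp2, Igfbp3, Socs2, Cish and Igf1 neither the effect of the mutation nor its difference from T3 passed.

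**Figure D2:**
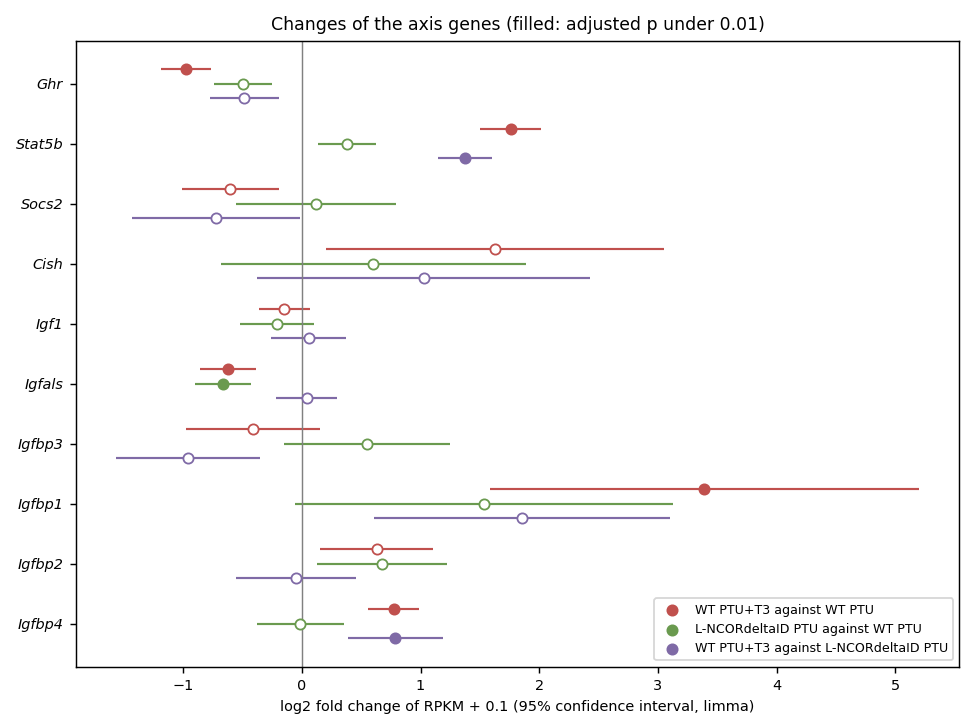
Log2 fold change of RPKM + 0.1 (horizontal axis) with its 95% confidence interval for each axis gene in the 3 comparisons, with filled points for an adjusted p under 0.01. Stat5b is the member whose interval lies far from 0 both after T3 (1.504 to 2.01) and against L-NCORdeltaID mice (1.15 to 1.60), while Cish and Igfbp1 have the widest intervals.

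In hypothyroid WT the order of levels per length ran from Igfbp4 at 659 RPKM through Ghr at 214, Igfbp2 at 119, Igf1 at 82.5 and Igfals at 51.6 to Igfbp1 at 17.9 RPKM, followed by Stat5b, Igfbp3, Cish and Socs2 between 7.89 and 2.64 RPKM. Igfbp2 and Igf1 overlapped between libraries, as did each neighbouring pair from Igfbp1 downwards. After T3, Igfbp2 and Igfbp1 (182 and 175 RPKM) had higher means than Ghr (109 RPKM). Igfbp2 lay wholly above Ghr, whereas Igfbp1 overlapped both, and Ghr and Igf1 did not overlap by their first listed transcripts. The other Ghr transcripts, at 76.2 to 99.9 and 77.8 to 102 RPKM after T3, overlapped Igf1. Igf1 kept a place below Ghr in all 3 groups.

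The members also differed in how far mice of the same group varied. The SD of log2 values within groups, pooled over the 3 groups, was 1.21 for Igfbp1 and 1.05 for Cish, larger than in 99% and 98.7% of 10663 genes with a mean of at least 1 RPKM. Igfbp3 (0.467), Socs2 (0.448) and Igfbp2 (0.379) were also above the median gene (0.178). Ghr, Stat5b and Igfals had 0.161, 0.157 and 0.163, so that changes well under 1 on the log2 scale could be seen for them and not for Igfbp1 or Cish.

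The extremes of a group often came from the same mouse. L-NCORdeltaID replicate 2 had the highest value of its group for 8 of 10 members (Socs2, Cish, Igf1, Igfals, Igfbp1, Igfbp2, Igfbp3 and Igfbp4) and the lowest for Ghr, and replicate 4 had the lowest value for 6 members. Without replicate 2, the log2 difference between L-NCORdeltaID and hypothyroid WT mice was -0.17 for Socs2 and -0.17 for Igfbp4. In hypothyroid WT, replicate 1 was highest for 5 members (Ghr, Socs2, Igf1, Igfbp1 and Igfbp2). In hyperthyroid WT, replicates 1 and 2 were each highest for 4, replicate 1 for Ghr, Igf1, Igfals and Igfbp4 and replicate 2 for Stat5b, Socs2, Cish and Igfbp1.

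The deposited list of 37200 regions marks where histone H3 was acetylated at lysine 9 or 27 in hypothyroid or hyperthyroid WT liver, merged over both states, so that it gives position and size but no level. The gene start (GENCODE M1, on mm9) lay in such a region for 9 of 10 members, beside 86% of 12314 tested genes with a position. The regions at the members' starts were 4189 to 54659 bp long (median 14847 bp). All 9 were longer than 3987 bp, the median over all start sites in a region.

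Stat5b and Stat5a shared the largest of them. Their starts, at 100712038 and 100720665 on chromosome 11, are 8627 bp apart and point away from each other, and both lay in chr11:100669805-100724463, a region of 54659 bp that was larger than 99.8% of regions at start sites. The region reached 42233 bp from the Stat5b start into the gene. The region at Igf1, chr10:87315573-87342586, measured 27014 bp and ran from 5437 bp before the start to 21576 bp into the gene.

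Igfbp3 was the member without a region at its start (7113926 on chromosome 11). The nearest region lay 13022 bp away beyond the 3' end of the gene and was the region of 13953 bp that holds the start of Igfbp1, chr11:7086952-7100904, since the starts of the 2 genes are 16141 bp apart and face each other. The remaining regions were 18090 bp at Igfbp4, 16112 bp at Cish, 14847 bp at Igfals, 12126 bp at Ghr, 7577 bp at Socs2 and 4189 bp at Igfbp2. Between 4 and 13 regions lay within 100 kb of each member's start, with the fewest at Cish and the most at Socs2.

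**Figure D3:**
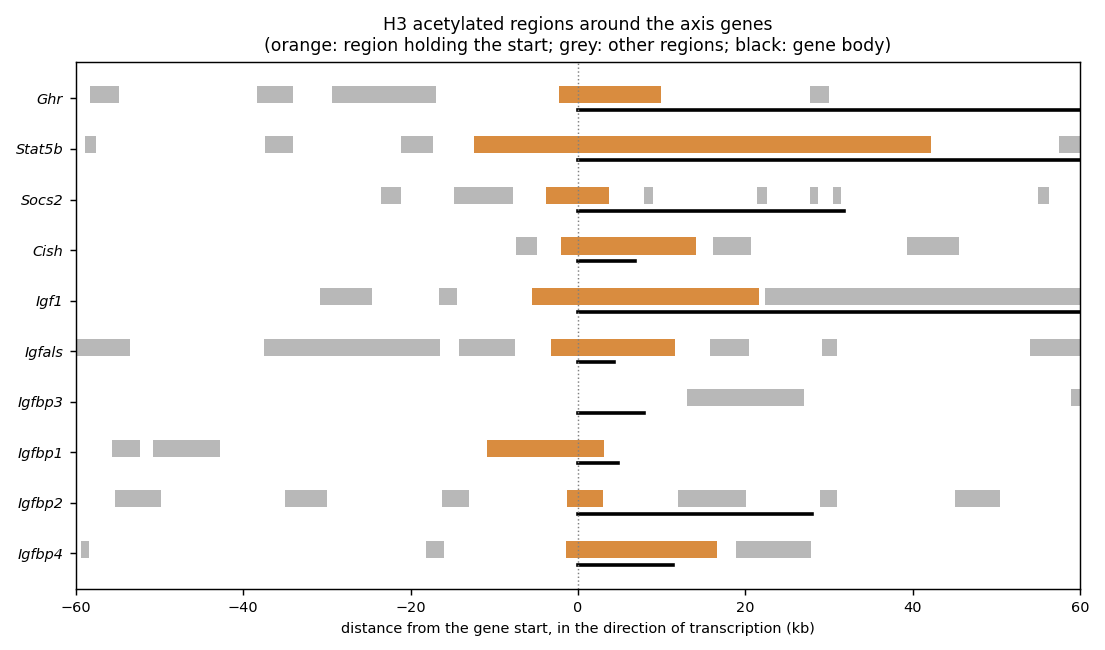
H3 acetylated regions within 60 kb of the start of each axis gene, as distance from the start in the direction of transcription in kb, with the region at the start in orange, other regions in grey and the gene body in black. The orange region of Stat5b is the widest at 54659 bp, and Igfbp3 has none.

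The DR4 element, AGGTCA followed by any 4 bases and by AGGTCA again, to which TR binds together with its partner RXR, was searched on both strands of these regions. Counted with at least 11 of 12 half-site bases matching, it occurred 0.0126 times per kb in all regions, and 4.48% of the 37200 regions held it. At this cutoff the regions at Igf1, Igfals and Igfbp4 held 1 each and those of the other members 0, including the large region of Stat5b. The capitals below mark the half-sites, all on the - strand of mm9, at chr10:87326238-87326253, chr17:25021011-25021026 and chr11:98917808-98917823, which lie 5235, 6418 and 15257 bp downstream of the respective starts.
Igf1: AAGTCAtgggAGGTCA
Igfals: AGGACAagacAGGTCA
Igfbp4: AAGTCAccaaAGGTCA
A match is a description of the sequence and not a bound site, and sizes differ between the regions, so that larger regions have more chances of a match. The counts depend on the cutoff. With at least 10 of 12 bases matching, all regions held 0.135 per kb. The counts were then 8 at Stat5b, 3 each at Igfals and Igfbp4, 2 each at Igf1, Cish and Igfbp1, 1 at Socs2 and 0 at Ghr and Igfbp2.

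Of 33 other genes of growth hormone and IGF signalling, 29 were tested after T3. Beside 8.28% of all genes upwards and 3.47% downwards, 4 of the 29 rose past the threshold while 0 fell. These were Stat5a, Cux2, Igfbp7 and Htra1, and their number was 2 after scaling. Cux2 encodes a repressor of male-biased genes that is largely restricted to female liver. It was at 0.108 ± 0.051 RPKM in hypothyroid WT and 1.95 ± 1.05 RPKM in hyperthyroid WT (log2 fold change 3.20 ± 0.34, adjusted p = 0.000111). In L-NCORdeltaID mice it was 0.178, 2.32, 0.440 and 0.096 RPKM. Igfbp7, made mainly by endothelial and stellate cells, was 21.7 ± 2.4 and 51.1 ± 3.3 RPKM in the WT groups (1.24 ± 0.09, adjusted p = 2.00e-05), and 1 of 6 endothelial and 0 of 6 stellate markers passed beside it. With any size 3 of 6 endothelial and 2 of 6 stellate markers were higher, beside 24.5% of all genes. At an unadjusted p under 0.05, 4 of 6 of each passed, beside 56.5% of all genes. Their summed levels went from 40.7 to 59.97 RPKM in hypothyroid to 60.6 to 72.9 RPKM in hyperthyroid WT for endothelial markers and from 57.9 to 83.9 RPKM to between 90.8 and 119 RPKM for stellate markers, and their part in the rise of Igfbp7 was not tested. Jak2, the kinase of the receptor, was higher by 0.43 (adjusted p = 0.0041 at any size). In L-NCORdeltaID mice 0 of 28 genes of the list passed in limma, beside 1.27% of all genes. At an unadjusted p under 0.05 the counts were 4 of 28 and 20.5% of all genes. In hyperthyroid WT against L-NCORdeltaID mice 6 of 28 were higher, beside 15.5% of all genes. Stat5a (2.76 ± 0.14) and Igfbp7 (0.81 ± 0.09) were ahead of the phosphatases Ptpn1 and Ptpn11, the adaptor Shc1 and the inhibitor Socs6. After scaling 3 of 28 were higher and 1 was lower.

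Liver genes that depend on the sex-specific rhythm of growth hormone were also among those that changed after T3. Of 20 male-biased genes, 7 fell and 3 rose past the threshold, beside 3.47% and 8.28% of all genes. Cyp4a12a, a fatty acid hydroxylase of male liver, fell from 207 ± 6.5 to 11.4 ± 5.9 RPKM (-4.33 ± 0.32, adjusted p = 1.96e-05), and Mup20, a male urinary pheromone protein, fell from 5405 ± 1242 to 873 ± 439 RPKM (-2.74 ± 0.34, adjusted p = 0.000276). Cyp4a12b fell as well (-7.06), whereas Elovl3, an elongase, rose (3.37). Of 23 female-biased genes tested, 9 rose and 3 fell past the threshold, beside 8.28% and 3.47% of all genes. Cyp17a1, a steroid hydroxylase, rose from 1.32 ± 0.89 to 212 ± 83 RPKM (7.37 ± 0.46, adjusted p = 9.10e-06), and Cyp3a44, Cyp3a16 and Sult3a1 rose by 7.76, 7.72 and 6.22 on the log2 scale, which for genes this low in hypothyroid liver depends on the pseudocount. Not all members of either list moved in the same direction, and reads of the near-identical Cyp3a, Cyp4a and Mup genes may have been split between copies.

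In L-NCORdeltaID mice 1 of 20 male-biased genes, Susd4, was lower (-1.05 ± 0.16, adjusted p = 0.00924, 0 of 20 after scaling), beside 0.544% of all genes. Of 19 female-biased genes 1, Cyp3a16, was higher while it stayed below 1 RPKM, beside 0.725% of all genes. The call in the male-biased list was also lost with a pseudocount of 1, no filter, all 12 libraries in 1 fit, the replicate block or no variance trend, and that in the female-biased list with no filter, all 12 libraries in 1 fit, a filter at a mean of 1 RPKM or the replicate block. Against L-NCORdeltaID mice, hyperthyroid WT had 5 male-biased genes lower and 3 higher of 20, and 9 female-biased genes higher and 3 lower of 22. Beside this, 15.5% of all genes were higher and 5.7% lower. Of these, Selenbp2, a male-biased selenium-binding protein, differed by 3.86 ± 0.67 (adjusted p = 0.0025).

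**Figure D4:**
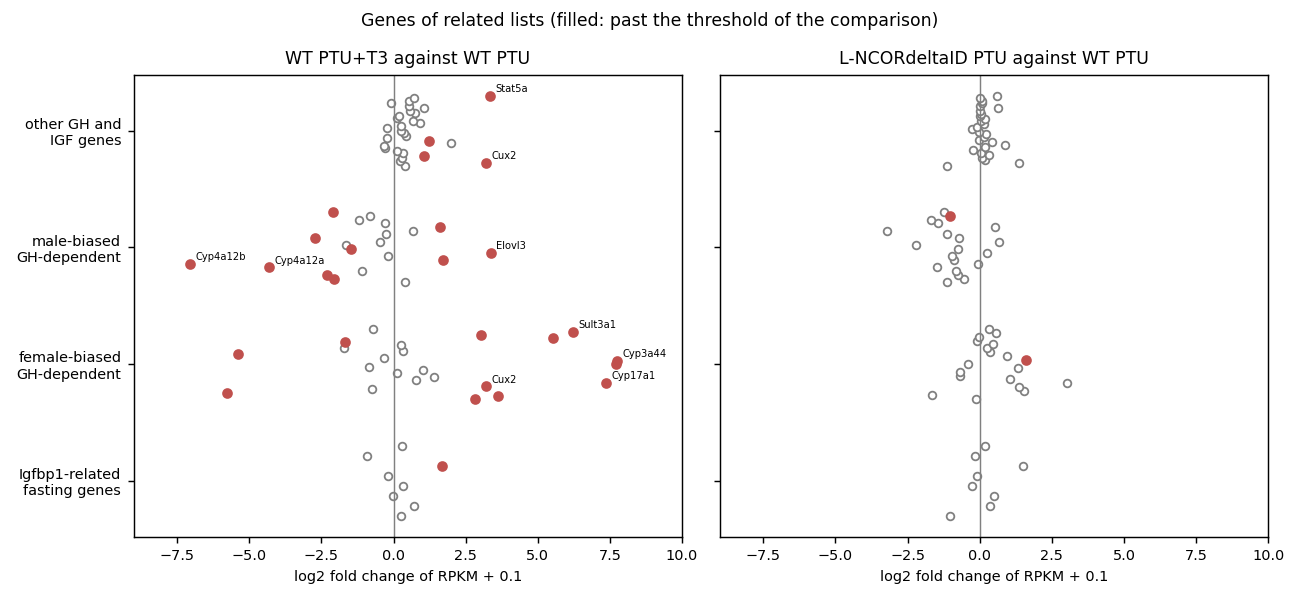
Log2 fold change of RPKM + 0.1 (horizontal axis) of each tested gene of the 4 related lists (rows), after T3 on the left and in L-NCORdeltaID mice on the right, with filled points past the threshold of the comparison. After T3 the male-biased list has 7 filled points below 0 and the female-biased list 9 above 0, and in L-NCORdeltaID mice each has 1 filled point.

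The genes nearest in pattern to 4 members were found by the root mean square difference of centred log2 levels over the 12 libraries, among 10663 genes with a mean of at least 1 RPKM. Nearest to Igfbp1 were Cdkn1a, Mir207 and Tlr2, with differences of 0.832, 0.872 and 0.891 beside a spread of 1.74 of Igfbp1 itself. Cdkn1a, which encodes a cell cycle inhibitor, was 2.24 to 6.21 RPKM in hypothyroid WT, 19.1 to 51.6 RPKM in hyperthyroid WT and 4.01 to 29.6 RPKM in L-NCORdeltaID mice, with its peak in hyperthyroid replicate 2 as for Igfbp1. Nearest to Cish were Jun, Rel and Lrg1 (0.570, 0.617 and 0.622, beside 1.13 for Cish), and Jun also peaked in that library, at 45.7 RPKM against 4.77 to 15.7 RPKM in the other hyperthyroid mice. Nearest to Socs2 were Zfp970, Flot1 and Nat6 (0.250, 0.256 and 0.266, beside 0.501). Igf1 varied little (0.191), and Fh1, Zfp715 and Apeh were nearest to it (0.096, 0.113 and 0.116).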

How the data were processed

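Liver RNA-seq libraries were made by poly(A) selection with NEBNext kits. The study names 2 instrument models, HiSeq 1500 or NovaSeq 6000, and which of the 12 libraries ran on which was not examined. The authors aligned reads to mm9 with STAR and quantified RefSeq transcripts with HOMER. RPKM is the unit of the deposited table. The authors called acetylated regions with HOMER from ChIP-seq libraries and merged them, and the deposited list holds other values only, the start and end of each region, with no signal. Fold changes of the authors, made with DESeq2, were not used. Of 31370 transcripts, 1 without a gene name was left out, and 0 columns of per-sample values were unused.

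The members and gene lists were chosen with earlier results of these data known. Values were taken as log2(RPKM + 0.1), and genes that reached 0.1 RPKM in 4 or more of the libraries in a comparison were kept. Each comparison was then fitted on its own 2 groups in limma 3.58.1 (under R 4.3.3), allowing the variance to follow the mean, with p-values adjusted by Benjamini-Hochberg across all genes kept and intervals of 95%. Fold changes are on this scale, which understates the change of low genes. The procedure was tested on simulated data. Depth came from the smallest RPKM steps, set to scale with single-exon coding lengths of GENCODE M1, and bears on counting error only. Replicates were separate mice and no library pair was identical (Pearson r of log2 values 0.967 to 0.986 within groups). Same-numbered libraries did not deviate together (r from -0.145 to 0.175), so that replicate numbers were not taken as pairs. All members were named, other listed genes only where called, reaching 1 RPKM in the group with more and without overlap between groups, the largest changes first, up to 6 for the signalling list and 4 for each other list. Cyp3a16 in L-NCORdeltaID mice, Htra1, Jak2, Cyp7b1, Cyp2b9 and Cyp4a14 lie outside this rule and were named after their values were seen. A listed gene that this rule would name is not reported here. Bcl6, Cux2 and Prlr stand in more than 1 list. RefSeq promoters (GRCm38.p6) were placed on mm9 by exact match. Alternatives were another pseudocount, filter, threshold, fit, scaling or transcript, a replicate block, and each library left out. Python 3.11.15, pandas 2.3.3 and matplotlib 3.10.9 were also used.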

Additional observations from a re-analysis of the deposited data

Results flagged for a closer look

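Of 30 groups of 4 libraries (10 members in 3 groups), 2 held a library far from the others by Dixon's test at 95%, where chance flags about 1 in 20 groups. Both were L-NCORdeltaID replicate 2. Ghr was 123 RPKM in it against 160 to 165 RPKM in the other L-NCORdeltaID mice, with a gap of 0.87 of the range. Cish was 12.5 RPKM in it against 2.93 to 4.25 RPKM, with a gap of 0.863 of the range.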

How the results depend on the processing

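Of 330 log2 fold changes of members under alternatives other than leaving out a library, 305 kept direction and side of the adjusted p threshold and 2 reversed. Scaling by the median of gene ratios reversed Igf1 (-0.14) and Igfals (-0.15) in hyperthyroid WT against L-NCORdeltaID mice. Leaving out 1 library reversed Igf1 (-0.061 to 0.15), Igfals (-0.028 to 0.11) and Igfbp2 (-0.23 to 0.10) in that comparison, and Socs2 (-0.17 to 0.37) and Igfbp4 (-0.17 to 0.10) in L-NCORdeltaID mice. For T3, members higher were 1 with no filter, no trend, the block or scaling, and 1 was lower (Ghr) with scaling, while leaving out 1 library gave 1 to 2 higher and 0 to 1 lower. For L-NCORdeltaID mice, members lower were 0 with a pseudocount of 1 or 0.01, no filter, a mean of at least 1 RPKM, no trend, the block or any library left out, and 2 at an adjusted p under 0.05. For hyperthyroid WT against L-NCORdeltaID mice, members higher were 1 with no filter or scaling and 1 to 2 without 1 library, and members lower were 1 with all 12 libraries in 1 fit or scaling, 2 at 0.05, and 0 to 1 without 1 library.

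Over all genes (higher and lower), T3 gave 1155 and 484, and 575 and 319 with a pseudocount of 1, 749 higher with scaling, and 994 to 1139 and 383 to 485 without 1 library. L-NCORdeltaID gave 100 and 75, and 21 and 22 with no filter, 20 and 25 with the replicate block, 344 and 257 at 0.05, 63 higher with no trend, 118 lower with all 12 libraries, and 36 to 110 and 28 to 77 without 1 library. The direct comparison gave 2176 and 799, and 1292 and 477 with no filter, 1152 and 490 with the replicate block, 1051 and 1284 with scaling, 3995 and 1412 at 0.05, and 1182 to 1905 and 469 to 767 without 1 library. The causes were not tested. With the replicate block, Socs2 passed after T3 (adjusted p = 0.00828), Igfbp1 passed in the direct comparison (0.00841), and Igfbp1 after T3 (0.0332), Igfals in L-NCORdeltaID mice (0.0137) and Igfbp4 in the direct comparison (0.0257) did not. Not every library correlated best with its own number. The fit over all transcripts was added after the data were seen. Regions near the members' starts numbered 80 within 100 kb, 40 within 50 kb and 128 within 200 kb, and 9 members had a region at the start with any coding start site.

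Limits were that Igfbp1 and Cish varied most within groups of 4, with wide intervals, that RPKM are relative to each library, and that acetylation levels were not analysed here.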

Other observations

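L-NCORdeltaID replicate 2 also stood at the edge of its group in some sex-biased genes outside the axis, which were looked at after its values for the axis were seen. It had the lowest Cyp4a12a (30.3 RPKM against 79.3 to 120 RPKM in the other L-NCORdeltaID mice), the lowest Mup20 (1602 against 2896 to 5036 RPKM) and the lowest Elovl3 (2.15 against 13.2 to 23.8 RPKM). It had the highest Cyp17a1 (32.4 against 2.41 to 14.3 RPKM) and the highest Cux2 (2.32 against 0.096 to 0.440 RPKM). Other listed genes had their edge value in another mouse. The male-biased Selenbp2 and Cyp7b1 were lowest in replicate 1 (1.65 and 24.7 RPKM, against 8.86 and 29.5 RPKM in replicate 2). The female-biased Cyp2b9 and Cyp4a14 were highest in replicate 1 (30.1 and 393 RPKM, against 12.3 and 101 RPKM in replicate 2). The genes of the lists were not counted by this trait, and the cause was not tested.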
